A study of Mus musculus with 12 samples.

Results

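The matrix metalloproteinases (Mmp), the Adam and Adamts proteases, the Adamts-like proteins (Adamtsl) and the tissue inhibitors of metalloproteinases (Timp) were followed in bulk RNAseq of mouse cardiac fibroblasts during *Sox17*-*Erg* reprogramming. Genes were taken when their mouse symbol was 1 of these family names followed by a number and when they had 10 or more counts summed over the 12 libraries. Of 35727 genes counted, 84 carried such a symbol, and 66 of these reached 10 counts: 21 Mmp, 18 Adam, 18 Adamts, 5 Adamtsl and 4 Timp genes. The other 18 included *Mmp7*, *Mmp20* and *Adamts13*, and 10 of them had 0 counts in all libraries. Of the 66 members 55 passed the filter on low counts and were tested. The remaining 11, *Adam1b*, *Adam21*, *Adam32*, *Adamts18*, *Adamts19*, *Mmp1a*, *Mmp1b*, *Mmp10*, *Mmp21*, *Mmp24* and *Mmp25*, never exceeded 0.691 CPM in a library. CPM are read counts scaled to the normalized total of their library.

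Mmps are zinc-dependent enzymes that cut collagens, proteoglycans and other matrix proteins, and most are made as inactive precursors that are activated outside the cell or at its surface. Adams sit in the membrane and release growth factors and receptors from it, while the secreted Adamts proteases trim procollagens and large proteoglycans such as versican and aggrecan. Adamtsl proteins share the non-catalytic domains and bind microfibrils, and Timps block the active sites of these enzymes with different preferences. In the heart, fibroblasts are a main source of Mmps and Timps during matrix remodeling.

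Fibroblasts were isolated from pooled hearts of neonatal mice by magnetic selection for THY1. The paper's results report a depletion of PECAM1-positive cells as an addition to the isolation. Its methods word this step as conditional and do not say whether these libraries had it. The cells were infected with retroviruses carrying *Sox17* and *Erg*, transcription factors of endothelium, or kept as control infections whose sample names carry the pMX retroviral backbone. The 6 groups, both conditions at each of Day 3, Day 7 and 4 weeks, had 2 libraries apiece, and the labels give EGM2, an endothelial growth medium, as the growth medium of every library, while the methods have the fibroblasts and the virus taken up in fibroblast medium first. The methods name C57BL/6J mice, or *Tcf21*-CreERT2 bred with *Rosa26*-tdTomato, as the source of cells without saying which gave these libraries. The labels give no animal number, and the methods name no sort of infected or converted cells before RNA isolation, so each library averages over a culture. Library totals were 19011635 to 41240449 counts. *Sox17* read 0 to 0.416 CPM in the 6 control libraries and 432 to 1036 CPM in the 6 *Sox17*-*Erg* libraries, and *Erg* read 0.0728 to 2.27 CPM against 17.1 to 65.2 CPM. All 10 fibroblast markers examined had counts in each group. Counting error did not account for the spread between the 2 libraries of a group (chi-square over genes of 27.8 to 71.6 times its degrees of freedom). What separates the 2 libraries, cultures or isolations, is not given in the labels, so p-values measure the spread between these libraries only.

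The first comparison asked which of these genes differed between *Sox17*-*Erg* and control cells at each time point. At Day 3, 3 members were higher and 10 lower in *Sox17*-*Erg* cells at a Benjamini-Hochberg adjusted p under 0.05 (edgeR quasi-likelihood test, over all 15506 genes tested), against 7.19% of all genes called higher and 5.13% called lower. At Day 7, 8 members were higher and 16 lower, with backgrounds of 9.48% and 7.93%. By 4 weeks 11 were higher and 14 lower, with backgrounds of 11.9% and 11.0%. Lower members made up 18.2%, 29.1% and 25.5% of the 55 at the 3 time points, and higher members 5.45%, 14.5% and 20.0%. The members tested had median log2 fold changes of -0.62, -0.53 and -0.46, where all genes had 0.01, 0.01 and -0.01. With the replicate number as a block within each time point, 22 members in place of 10 were lower at Day 3, while the share of all genes called lower went from 5.13% to 10.4%. The 12 members it added there were *Mmp3*, *Mmp23*, *Adam8*, *Adam17*, *Adamts2*, *Adamts5*, *Adamts10*, *Adamts12*, *Adamts14*, *Adamts15*, *Adamtsl4* and *Timp3*. It also added 3 higher and 7 lower members at Day 7, where all genes went to 13.8% higher and 13.3% lower, and 2 higher and 6 lower by 4 weeks, where both shares went to 15.5%. Without *Sox17*-*Erg* replicate 1 of Day 3, 2 members and 0.426% of all genes were lower at that time point. Without *Sox17*-*Erg* replicate 1 of Day 7, 5 members and 1.98% of all genes were lower at Day 7. Without control replicate 1 of 4 weeks, 5 members and 7.68% of all genes were higher at 4 weeks.

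Of the 55 members 33 were called at 1 or more time points, where 31.0% of all genes were. *Adamts6*, *Adamts7* and *Adamts16* were higher at all 3 time points, 5.45% of the members tested against 3.59% of all genes. *Adamts16*, without counts in any control, passed the filter on low counts by its *Sox17*-*Erg* libraries only. *Mmp2*, *Mmp16*, *Mmp19*, *Adam33*, *Adamts9*, *Adamtsl2* and *Timp2* were lower at all 3, 12.7% against a background of 2.27%. In an exact two-sided permutation test per gene, with labels permuted within each time point, 8 members were higher and 16 lower at the smallest p this design can give, 0.00926 (0.0328 after Benjamini-Hochberg adjustment over all genes), where 14.6% and 13.6% of all genes were. For these 24, both *Sox17*-*Erg* libraries lay on the same side of both controls at all 3 time points. This test takes the libraries of a time point as freely exchangeable. With labels swapped only between libraries of the same replicate number, a choice made after seeing the data, there were 64 arrangements and the smallest exact permutation p was 0.0312, or 0.0769 after adjustment, which cannot pass the threshold. At that p were 9 higher and 26 lower members, against 20.5% and 20.1% of all genes.

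**Figure D1:**
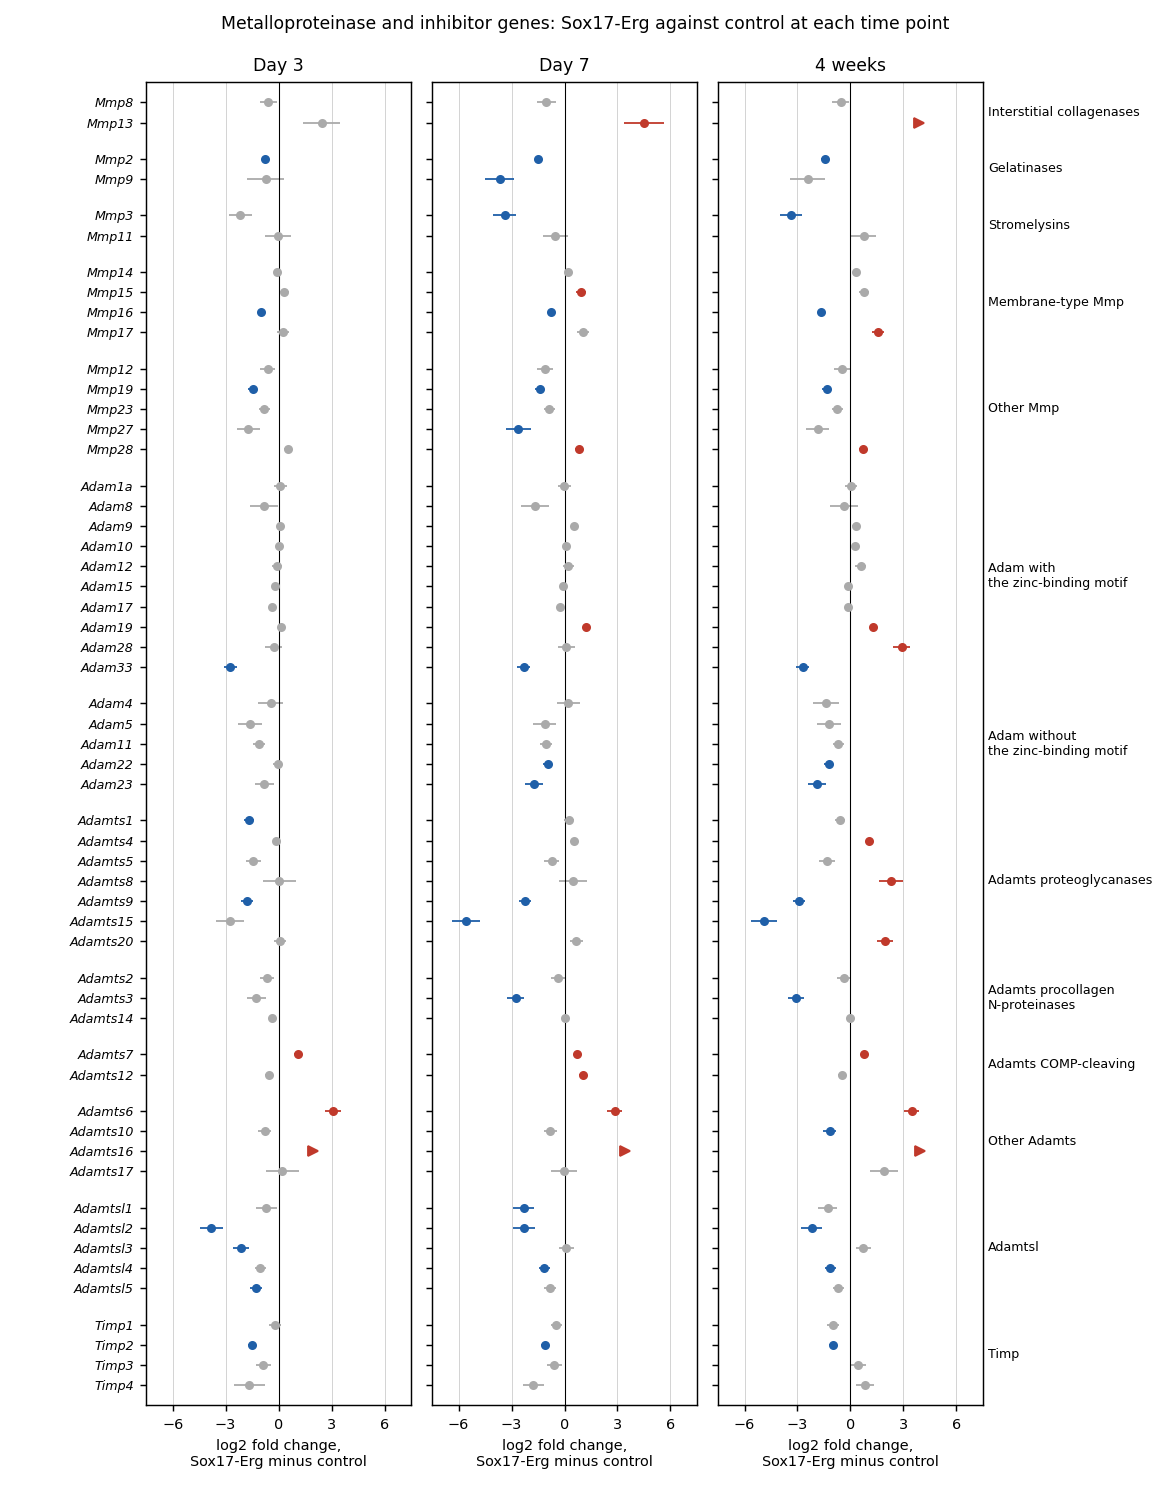
Log2 fold changes (x axis) of the 55 members tested (y axis, by role) between *Sox17*-*Erg* and control at Day 3, Day 7 and 4 weeks. Circles are fitted values with standard errors, red called higher, blue called lower and gray not called, and triangles are lower bounds for genes with 0 counts in both control libraries; lower calls outnumber higher ones in each panel, 10 to 3, 16 to 8 and 14 to 11, with the triangles, all of them called higher, among the latter.

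Together the 66 members took a smaller share of the *Sox17*-*Erg* libraries. In the controls they held 0.894% and 0.902% of all counts at Day 3, then 1.07% and 1.30%, then 1.46% and 1.26% at 4 weeks. In *Sox17*-*Erg* cells the shares were 0.488% and 0.580%, then 0.624% and 0.838%, then 0.778% and 0.746%. The groups did not overlap at any time point, and the highest *Sox17*-*Erg* share lay under the lowest control share. In bulk samples, fewer cells that express a gene and less RNA per cell cannot be told apart. Of all member counts 80.5% came from 10 genes, led by *Timp2* (15.9%), *Adamtsl2* (12.6%) and *Mmp2* (9.51%). Per kilobase of annotated exon, the mean levels over the 12 libraries were 364 CPM for *Timp2*, 253 for *Mmp2*, 137 for *Adamtsl2*, 133 for *Adam9*, 131 for *Timp1*, 125 for *Adamts1* and 112 for *Mmp14*.

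**Figure D2:**
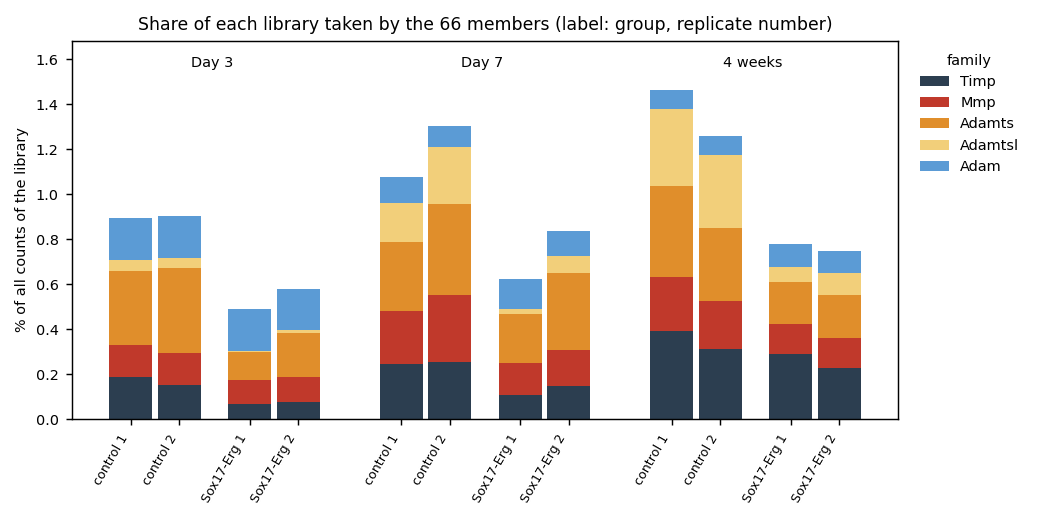
Share of all counts of each library (y axis, %) taken by the 66 members, stacked by family, for the 12 libraries (x axis, group and replicate number under each time point). The control bars reach 0.894% to 1.46% and the *Sox17*-*Erg* bars 0.488% to 0.838%.

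Of the inhibitors, *Timp2*, which blocks Mmps and also takes part in the activation of Mmp2, was lower at all 3 time points and the other Timps were called at none. *Timp2* read 1412 and 1218 CPM in the control libraries and 399 and 535 CPM with *Sox17*-*Erg* at Day 3, 1867 and 2014 against 779 and 1006 CPM at Day 7, and 2895 and 2272 against 1504 and 1116 CPM at 4 weeks. Each *Sox17*-*Erg* value lay below both controls of its day, although *Timp2* rose with time in both groups. The log2 fold changes were -1.49 ± 0.23 (standard error; adjusted p = 0.0064, edgeR), -1.12 ± 0.23 (adjusted p = 0.012) and -0.98 ± 0.23 (adjusted p = 0.015). At Day 3 the call was lost without control replicate 1 or *Sox17*-*Erg* replicate 1 (adjusted p = 0.050 and 0.0681). At Day 7 it was lost without control replicate 2 or *Sox17*-*Erg* replicate 1 (0.0549 and 0.101), and at 4 weeks without control replicate 1 or *Sox17*-*Erg* replicate 2 (0.0936 and 0.0809).

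*Timp1*, an inducible inhibitor of secreted Mmps, read 173 and 151 CPM in control against 133 and 148 CPM in *Sox17*-*Erg* cells at Day 3, 179.6 and 101 against 131 and 71.8 CPM at Day 7, and 87.7 and 114 against 45.9 and 56.3 CPM at 4 weeks. The groups overlapped at Day 7 and were apart at Day 3 and 4 weeks, and the 4-week log2 fold change of -0.98 ± 0.32 had an adjusted p of 0.055. With the replicate block within time points *Timp1* passed at Day 7 (log2 fold change -0.47, adjusted p = 0.019) and at 4 weeks (-0.98, adjusted p = 0.00095).

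*Timp3*, which stays bound to the matrix and also blocks Adam and Adamts enzymes, read 249 and 195 against 116 and 128 CPM at Day 3, 306 and 535 against 161 and 402 CPM at Day 7, and 1043 and 653 against 1394 and 912 CPM at 4 weeks. *Timp4*, the inhibitor known from heart muscle, read 0.582 and 0.601 against 0.0506 and 0.302 CPM at Day 3, 6.84 and 1.89 against 0.993 and 1.63 CPM at Day 7, and 8.64 and 10.6 against 15.1 and 19.1 CPM at 4 weeks. For both genes the *Sox17*-*Erg* values were the lower ones at Day 3 and the means were the higher ones at 4 weeks, with *Timp3* groups overlapping at Day 7 and 4 weeks. No single comparison passed the test, with log2 fold changes of -0.86 ± 0.44, -0.58 ± 0.44 and 0.44 ± 0.44 for *Timp3* and -1.66 ± 0.87, -1.76 ± 0.57 and 0.83 ± 0.52 for *Timp4* in order of time. The change in effect from Day 3 to 4 weeks did not pass either (1.31 ± 0.62, adjusted p = 0.33, and 2.49 ± 1.01, adjusted p = 0.25). Under the replicate block within time points *Timp3* was called lower at Day 3 (-0.85, adjusted p = 0.015) and at Day 7 (-0.66, adjusted p = 0.029).

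**Figure D3:**
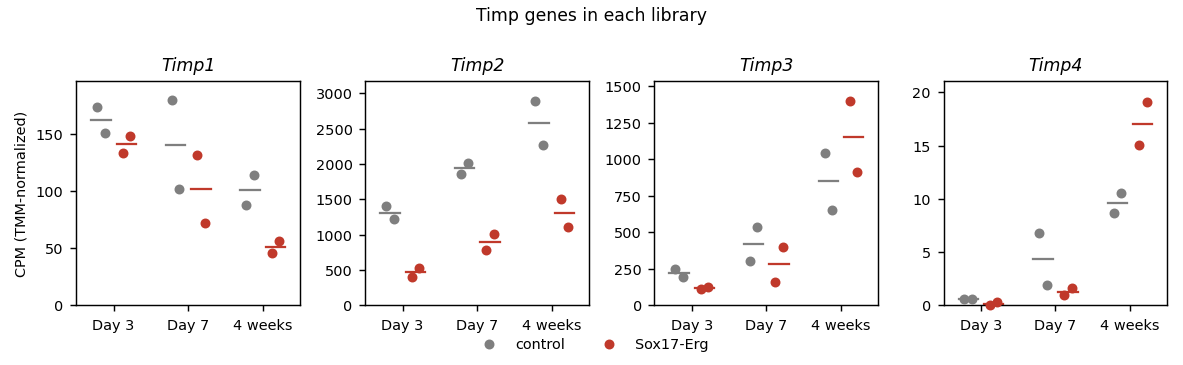
TMM-normalized CPM (y axis, linear from 0) of the 4 Timp genes in each library at Day 3, Day 7 and 4 weeks (x axis), control in gray and *Sox17*-*Erg* in red, with lines at group means. *Timp2* is lower in red at each time point (for example 399 and 535 against 1412 and 1218 CPM at Day 3), while the red means of *Timp3* and *Timp4* cross from below to above gray by 4 weeks, differences that did not pass the test.

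The gelatinases were lower where they were called. *Mmp2*, gelatinase A, read 543 and 466 CPM in control and 311 and 283 CPM in *Sox17*-*Erg* cells at Day 3, 1414 and 1964 against 562 and 641 CPM at Day 7, and 1692 and 1281 against 551 and 535 CPM at 4 weeks. The groups were apart at each time point. Its log2 fold changes were -0.76 ± 0.20 (adjusted p = 0.040), -1.49 ± 0.20 (adjusted p = 0.0017) and -1.45 ± 0.20 (adjusted p = 0.0012). Its Day 3 call was lost without any 1 of the 4 libraries of that day (adjusted p = 0.100 to 0.182) or without either *Sox17*-*Erg* library of 4 weeks (0.050 and 0.0567). *Mmp9*, gelatinase B and typical of myeloid cells, was near the detection limit and peaked in the controls at Day 7 with 41 and 19 counts (1.57 and 0.764 CPM) against 2 and 3 counts with *Sox17*-*Erg*. That was its only call (-3.67 ± 0.81, adjusted p = 0.015), and it was lost without control replicate 1 or *Sox17*-*Erg* replicate 1 of Day 7 (adjusted p = 0.0679 and 0.144). Summed CPM of 10 macrophage markers was also higher in these controls, at 915 and 1316 against 282 and 455 with *Sox17*-*Erg*. Within these controls the order was opposite, with more *Mmp9* in replicate 1 and the larger sum in replicate 2. In the 4-week controls *Mmp9* read 0.226 and 0.203 CPM while the sums were 47.8 and 432. None of the 10 macrophage markers was called at any time point, and their part in the *Mmp9* result was not tested.

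*Mmp13*, a collagenase that cuts fibrillar collagen, and *Mmp3*, stromelysin 1, moved in opposite directions. Both lie in 1 run of 8 Mmp members on chromosome 9 (GRCm38, 7272514 to 7581885), where *Mmp13* is at 7272514 to 7283331 and *Mmp3* at 7445822 to 7455975, both on the + strand. *Mmp13* had 5 and 3 counts in the controls against 17 and 22 with *Sox17*-*Erg* at Day 3, 4 and 0 against 22 and 72 at Day 7, and 0 and 0 against 54 and 27 by 4 weeks. The *Sox17*-*Erg* libraries were higher at each time point without overlap, all at low levels of 0.607 to 3.16 CPM. It was called at Day 7 (4.49 ± 1.12, adjusted p = 0.029) and at 4 weeks, where it was at least 14.8-fold higher if each control library is set at 3 counts (adjusted p = 0.0089), and not at Day 3 (2.45 ± 1.04, adjusted p = 0.16). The Day 7 call was lost without control replicate 2 or *Sox17*-*Erg* replicate 2 (adjusted p = 0.120 and 0.112) and the 4-week call without control replicate 1 (0.0551). Without 1 library of Day 7 the fitted Day 7 value ran from 2.84 (*Sox17*-*Erg* replicate 2 left out) to 8.64 (control replicate 1 left out, which leaves 1 control at 0 counts, so that this value is no measure of size).

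*Mmp3* read 25.9 and 33.5 CPM in control against 3.64 and 9.52 CPM with *Sox17*-*Erg* at Day 3, 63.6 and 28.3 against 2.04 and 6.99 CPM at Day 7, and 83.0 and 154 against 10.3 and 12.7 CPM at 4 weeks. Here every control lay above every *Sox17*-*Erg* library. The log2 fold change was -2.16 ± 0.64 (adjusted p = 0.056) at Day 3, called with the replicate block (-2.24 over all libraries and -2.27 within time points, both adjusted p = 0.038), and -3.39 ± 0.66 (adjusted p = 0.0090) and -3.36 ± 0.64 (adjusted p = 0.0057) at Day 7 and 4 weeks. Those 2 calls were lost without *Sox17*-*Erg* replicate 1 of their time point (adjusted p = 0.0641 and 0.0593). *Mmp27*, the last gene of the run and a stromelysin-like protease, read 1.11 and 1.37 against 0.110 and 0.308 CPM at Day 7 (-2.62 ± 0.69, adjusted p = 0.031). It missed the threshold at 4 weeks (-1.85 ± 0.65, adjusted p = 0.072) where the replicate block gave an adjusted p of 0.045 over all libraries and 0.042 within time points. Its Day 7 call was lost without either control or without *Sox17*-*Erg* replicate 1 of that day (adjusted p = 0.0611 to 0.225). *Mmp8* and *Mmp12* of the same run were called at no time point, and *Mmp1a*, *Mmp1b* and *Mmp10* were below the filter.

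The promoters of *Mmp13* and *Mmp3* are shown because these genes of 1 run changed in opposite directions. The 250 bases before each start site are given 5′ to 3′ from RefSeq on GRCm38.p6, at chr9:7272264-7272513 (+ strand) for *Mmp13* and chr9:7445572-7445821 (+ strand) for *Mmp3*. Capitals mark the letters TGANTCA of AP-1, a factor known to drive many Mmp promoters, CNGGAAG of ETS factors such as Erg, and ATTGT of SOX factors such as Sox17, searched on both strands.
*Mmp13*: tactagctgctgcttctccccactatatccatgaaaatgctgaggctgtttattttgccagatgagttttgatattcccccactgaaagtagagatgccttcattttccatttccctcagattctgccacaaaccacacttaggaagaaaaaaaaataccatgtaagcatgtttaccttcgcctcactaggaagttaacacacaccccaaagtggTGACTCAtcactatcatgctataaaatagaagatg
*Mmp3*: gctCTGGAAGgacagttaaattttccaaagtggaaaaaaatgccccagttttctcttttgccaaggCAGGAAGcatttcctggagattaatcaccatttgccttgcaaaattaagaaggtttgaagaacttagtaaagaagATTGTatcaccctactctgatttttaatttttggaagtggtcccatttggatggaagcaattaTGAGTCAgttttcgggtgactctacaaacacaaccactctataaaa
The AP-1 letters stood 35 to 29 bases before the start in *Mmp13* and 46 to 40 bases before it in *Mmp3*, close to the start in both. Of the other letters searched, the *Mmp3* window held those of ETS at 2 places and those of SOX at 1, and the *Mmp13* window held none. The *Mmp13* window did hold taggaag at 2 places, which differs from CNGGAAG in the first base only and was not marked. The search therefore does not show that *Mmp13* lacks ETS sites. RefSeq promoters of 300 bases (250 before to 50 after the start) were at hand for 43 of the 66 members, 47 promoters in all. The AP-1 letters were in 8 of these 47 (17%) and in 7.81% of all 32851 promoters, and 6 of the 8 genes, *Mmp13*, *Mmp12*, *Mmp1b*, *Mmp3*, *Mmp1a* and *Mmp10*, lay in the run on chromosome 9. The other 2 were *Adam19* and *Adam1b*. The ETS letters were in 29.8% of the member promoters and 31.9% of all, and the SOX letters in 23.4% and 31.0%. Among members called at 1 or more time points, the AP-1 letters were in 2 of 8 promoters of higher genes and 1 of 12 promoters of lower genes, the ETS letters in 1 and 2, and the SOX letters in 0 and 2. Several of the 8 promoters belong to *Adam19*. Of the members called at all time points only *Adamts9*, *Adamtsl2* and *Timp2*, all lower, had a promoter at hand. The split by direction therefore does not describe the called members as a set.

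Of the 4 membrane-type Mmps tested, *Mmp16* was lower throughout and *Mmp15* and *Mmp17* were each higher once. *Mmp16*, an activator of Mmp2 at the cell surface, read 23.5 and 20.9 against 10.3 and 12.2 CPM at Day 3, 17.6 and 19.1 against 10.04 and 11.6 CPM at Day 7, and 20.2 and 16.8 against 5.91 and 5.56 CPM at 4 weeks. Its replicates were close and its groups never overlapped, with log2 fold changes of -0.98 ± 0.15 (adjusted p = 0.0063), -0.76 ± 0.15 (adjusted p = 0.0096) and -1.69 ± 0.16 (adjusted p = 0.00013). The call was lost at Day 3 without control replicate 1 or *Sox17*-*Erg* replicate 1 (adjusted p = 0.0548 and 0.0595) and at Day 7 without control replicate 2 or *Sox17*-*Erg* replicate 1 (0.0520 and 0.0920). *Mmp14*, the main membrane-bound collagenase and Mmp2 activator, was among the most abundant members and was not called, at 678 and 833 against 632 and 772 CPM, 612 and 756 against 782 and 764 CPM, and 509 and 483 against 673 and 548 CPM. Its log2 fold changes of -0.11, 0.18 and 0.30 had standard errors of 0.18. *Mmp15* was higher at Day 7 (0.93 ± 0.27, adjusted p = 0.044) and *Mmp17* at 4 weeks (1.58 ± 0.34, adjusted p = 0.0097). The *Mmp15* call was lost with the replicate block over all libraries (adjusted p = 0.052), and the block within time points also called *Mmp17* at Day 7 (0.99, adjusted p = 0.026).

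Among the other Mmps *Mmp19*, a protease of basement membrane proteins, was lower at all 3 time points. It read 41.2 and 50.1 against 11.7 and 21.2 CPM at Day 3, 77.9 and 77.7 against 23.5 and 35.2 CPM at Day 7, and 77.2 and 74.2 against 28.9 and 30.3 CPM at 4 weeks. No *Sox17*-*Erg* library reached a control of its day, and the log2 fold change stayed near the same size at -1.47 ± 0.27 (adjusted p = 0.011), -1.41 ± 0.26 (adjusted p = 0.0071) and -1.36 ± 0.26 (adjusted p = 0.0058). Without *Sox17*-*Erg* replicate 1 of the time point the call was lost at each (adjusted p = 0.0634, 0.0627 and 0.0503), and at Day 3 also without control replicate 2 (0.0688). *Mmp19* shares 789 exon bases with *Tmem198b* on the opposite strand. *Mmp28*, epilysin, was higher at Day 7 (0.81 ± 0.23, adjusted p = 0.038) and 4 weeks (0.72 ± 0.22, adjusted p = 0.047), and *Mmp11*, *Mmp12* and *Mmp23* were called at none. With the replicate block *Mmp23* was lower at each time point, with log2 fold changes of -0.86, -0.88 and -0.77 within time points (adjusted p = 0.012, 0.0083 and 0.011) and adjusted p of 0.025, 0.015 and 0.019 over all libraries.

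Of the 18 Adam members 12 hold the zinc-binding motif of active proteases in translated GENCODE transcripts. Of the 10 of these that were tested *Adam33* was lower throughout, *Adam19* and *Adam28* became higher, and 7 were called at no time point. *Adam33*, a membrane protease of mesenchymal cells, read 19.3 and 9.85 against 2.13 and 2.24 CPM at Day 3, 27.2 and 20.5 against 4.30 and 5.32 CPM at Day 7, and 31.0 and 17.4 against 3.96 and 3.48 CPM at 4 weeks. The controls differed between replicates but stayed above every *Sox17*-*Erg* library, with log2 fold changes of -2.74 ± 0.38 (adjusted p = 0.0041), -2.31 ± 0.36 (adjusted p = 0.0031) and -2.70 ± 0.37 (adjusted p = 0.0010). All 3 calls of *Adam33* were kept without any 1 library.

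*Adam9*, a widely expressed sheddase, was the most abundant Adam and read 734 and 757 against 812 and 779 CPM at Day 3, 412 and 311 against 629 and 436 CPM at Day 7, and 378 and 384 against 542 and 405 CPM at 4 weeks. Its *Sox17*-*Erg* values were the higher ones each day by small steps, with log2 fold changes of 0.09, 0.56 and 0.31 (standard error 0.21 for each), none called except at Day 7 under the replicate block within time points (0.55, adjusted p = 0.026). The sheddases *Adam10* and *Adam17*, which act on Notch receptors and on Tnf, had log2 fold changes between -0.38 and 0.26 with adjusted p of 0.14 to 0.90. The replicate block within time points called *Adam17* lower at Day 3 (-0.38, adjusted p = 0.024) and also *Adam8*, a sheddase of leukocytes, at Day 3 (-0.78, adjusted p = 0.025) and Day 7 (-1.66, adjusted p = 0.0013). *Adam8* read 48.9 and 31.8 against 23.4 and 22.5 CPM at Day 3, 45.7 and 63.2 against 13.4 and 21.4 CPM at Day 7, and 2.63 and 18.1 against 2.97 and 12.9 CPM at 4 weeks. The summed CPM of the 10 macrophage markers, none of them at 0 counts, was 454 and 295 against 307 and 333 at Day 3, 915 and 1316 against 282 and 455 at Day 7, and 47.8 and 432 against 69.7 and 347 by 4 weeks. All 10 had negative log2 fold changes at Day 7 (median -1.40, none called), and their part in the *Adam8* result was not tested. The replicate block within time points also called *Adam12* higher at 4 weeks (0.57, adjusted p = 0.023). Of the 5 tested Adams without the motif, which serve in adhesion, *Adam22* was lower at Day 7 and 4 weeks (-0.96 ± 0.26, adjusted p = 0.033, and -1.23 ± 0.26, adjusted p = 0.0094), as was *Adam23* (-1.72 ± 0.51, adjusted p = 0.047, and -1.88 ± 0.50, adjusted p = 0.026).

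Of the 7 Adamts proteases known to cut proteoglycans, *Adamts9* was lower at all 3 time points, *Adamts1* at Day 3, *Adamts15* at Day 7 and 4 weeks, and 3 others were higher at 4 weeks. *Adamts9*, which cuts versican, read 210.2 and 188 against 50.8 and 65.3 CPM at Day 3, 369 and 346 against 47.6 and 106 CPM at Day 7, and 252 and 299 against 30.4 and 41.6 CPM at 4 weeks. The groups were far apart each day, with log2 fold changes of -1.78 ± 0.33 (adjusted p = 0.012), -2.22 ± 0.33 (adjusted p = 0.0025) and -2.94 ± 0.34 (adjusted p = 0.00045). The Day 3 call was lost without either control or *Sox17*-*Erg* replicate 1 of that day (adjusted p = 0.0534 to 0.120). *Adamts9* shares 1381 exon bases with *A730049H05Rik* on the opposite strand. *Adamts1*, also a versican protease, was lower at Day 3, at 1240 and 1385 against 282 and 547 CPM (-1.66 ± 0.29, adjusted p = 0.0099, 0.0580 without control replicate 2 of that day). Its groups overlapped at Day 7, at 546 and 611 against 559 and 796 CPM. By 4 weeks it read 551 and 632 against 400.2 and 376 CPM. Both *Sox17*-*Erg* libraries were the lower ones there, and the difference was not called (-0.61 ± 0.28, adjusted p = 0.16).

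*Adamts15*, another versican and aggrecan protease, had the largest fitted decrease of all members tested at Day 7 and at 4 weeks. It read 9.39 and 15.1 against 2.28 and 1.34 CPM at Day 3, 131 and 332 against 2.01 and 7.86 CPM at Day 7, and 737 and 286 against 14.8 and 19.2 CPM at 4 weeks. Both groups rose from Day 3 to 4 weeks, every control lay above every *Sox17*-*Erg* library of its time point, and replicates of the controls differed over 2-fold at the later times. The difference in effect between Day 3 and 4 weeks was not called (-2.14 ± 1.04, adjusted p = 0.34). The log2 fold changes were -5.60 ± 0.78 (adjusted p = 0.0018) at Day 7 and -4.91 ± 0.75 (adjusted p = 0.0018) at 4 weeks, kept without any 1 library. At Day 3 it was -2.77 ± 0.79 (adjusted p = 0.051), where the replicate block within time points gave -2.75 (adjusted p = 0.015). *Adamts8*, whose gene starts 20109 bases beyond *Adamts15* on chromosome 9 and reads the other way, went up instead (30942562 to 30963838, + strand, against 30899155 to 30922452, - strand, GRCm38). It had 7 and 1 counts in control against 3 and 4 with *Sox17*-*Erg* at Day 3, 2 and 7 against 6 and 8 at Day 7, and 18 and 7 against 63 and 39 at 4 weeks. Only the 4-week libraries were apart, and the call there (2.28 ± 0.69, adjusted p = 0.042) was lost without any 1 of the 4 libraries of 4 weeks or of the 2 *Sox17*-*Erg* libraries of Day 3 (adjusted p = 0.0564 to 0.185).

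*Adamts4*, aggrecanase 1, read 9.02 and 10.3 against 8.05 and 9.35 CPM at Day 3, 7.57 and 7.43 against 10.8 and 10.7 CPM at Day 7, and 5.66 and 4.64 against 10.6 and 10.7 CPM at 4 weeks. The control level went down with time and the *Sox17*-*Erg* level did not, so that the groups were apart from Day 7, with log2 fold changes of -0.15 ± 0.16, 0.52 ± 0.16 (adjusted p = 0.051, 0.042 with the replicate block within time points) and 1.04 ± 0.16 (adjusted p = 0.0018). *Adamts20* was also higher at 4 weeks (1.94 ± 0.44, adjusted p = 0.013), and *Adamts5*, aggrecanase 2, was not called without a replicate block (-1.44 ± 0.44, adjusted p = 0.062, at Day 3 and -1.33 ± 0.44, adjusted p = 0.056, at 4 weeks). With the block within time points *Adamts5* was lower at each (adjusted p = 0.0049, 0.027 and 0.0037), and with the block over all libraries at Day 3 and 4 weeks (0.021 and 0.018).

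Of the 3 procollagen N-proteinases *Adamts3* was lower at Day 7 and 4 weeks, and *Adamts2* and *Adamts14* were called at no time point without a replicate block. *Adamts3*, which also activates Vegfc, read 0.800 and 0.786 against 0.354 and 0.302 CPM at Day 3, 3.84 and 5.22 against 0.358 and 1.01 CPM at Day 7, and 9.45 and 10.2 against 0.814 and 1.52 CPM at 4 weeks. Its level rose in both groups and the controls were above at each time point, with log2 fold changes of -1.27 ± 0.54 (adjusted p = 0.15), -2.77 ± 0.46 (adjusted p = 0.0042) and -3.07 ± 0.45 (adjusted p = 0.0014). *Adamts2*, the main enzyme for fibrillar procollagens, read 380.4 and 496 against 195 and 354 CPM, 603 and 1180 against 557 and 817 CPM, and 1129 and 658 against 776 and 609.5 CPM. Its replicates differed more than its groups at the later times (-0.67 ± 0.41, -0.38 ± 0.41 and -0.37 ± 0.41), and only the replicate block within time points called it, at Day 3 (-0.72, adjusted p = 0.030), as it did *Adamts14* (-0.35, adjusted p = 0.030).

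Of the 2 Adamts proteases that cut cartilage oligomeric matrix protein, *Adamts7* was higher at all 3 time points and *Adamts12* at Day 7. *Adamts7* read 16.3 and 19.6 against 42.5 and 34.5 CPM at Day 3, 27.4 and 32.8 against 45.3 and 54.4 CPM at Day 7, and 18.7 and 21.8 against 28.0 and 41.9 CPM at 4 weeks. It was above control each day by a small fold, with log2 fold changes of 1.10 ± 0.22 (adjusted p = 0.015), 0.73 ± 0.21 (adjusted p = 0.043) and 0.79 ± 0.21 (adjusted p = 0.027). The calls depended on single libraries. The Day 3 and 4-week calls were lost without either control or without *Sox17*-*Erg* replicate 1 (Day 3) or 2 (4 weeks) of the time point (adjusted p = 0.0541 to 0.183), with a 4-week value of 0.44 without *Sox17*-*Erg* replicate 2. The Day 7 call was lost without any 1 library but the 2 *Sox17*-*Erg* libraries of 4 weeks (adjusted p = 0.0527 to 0.174). *Adamts7* shares 122 exon bases with *Tbc1d2b* on the opposite strand. *Adamts12* read 488 and 510.3 against 252 and 423 CPM at Day 3, 246 and 269 against 479.8 and 584 CPM at Day 7, and 129.8 and 114 against 94.7 and 80.0 CPM at 4 weeks. It was above control at Day 7 and below it at the other times, a change in effect that was not called (Day 7 minus Day 3 1.61 ± 0.32, adjusted p = 0.13), and only Day 7 passed (1.05 ± 0.23, adjusted p = 0.013, and 0.0569 to 0.0648 without either control or without *Sox17*-*Erg* replicate 2 of that day). With the replicate block within time points the Day 3 decrease passed too (-0.61, adjusted p = 0.038).

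Of the other Adamts proteases *Adamts6* and *Adamts16* were higher at each time point and *Adamts10*, a microfibril-binding protease, was lower at 4 weeks (-1.17 ± 0.36, adjusted p = 0.047), and with the replicate block within time points also at Day 3 and Day 7 (-0.81 and -0.78, adjusted p = 0.015 and 0.013). *Adamts6*, a relative of *Adamts10* that acts on microfibrils, read 1.56 and 0.832 against 13.7 and 7.07 CPM at Day 3, 1.31 and 2.17 against 14.7 and 10.1 CPM at Day 7, and 2.26 and 2.24 against 29.7 and 19.9 CPM at 4 weeks. Every *Sox17*-*Erg* library lay above all 6 controls. The log2 fold changes were 3.09 ± 0.44 (adjusted p = 0.0046), 2.84 ± 0.43 (adjusted p = 0.0026) and 3.46 ± 0.43 (adjusted p = 0.00061), all kept without any 1 library. *Adamts16* had 0 counts in all 6 control libraries and, with *Sox17*-*Erg*, 9 and 12 counts at Day 3, then 36 and 36, then 50 and 33 by 4 weeks. With the controls set at 3 counts per library, it was at least 3.92-fold, 10.9-fold and 15.2-fold higher (adjusted p = 0.017, 0.0039 and 0.0019), at levels of only 0.455 to 1.77 CPM. *Adamts16* entered the test by the *Sox17*-*Erg* libraries alone, the group where it was high. The Day 3 call was lost without either control or without *Sox17*-*Erg* replicate 1 of that day (adjusted p = 0.0747 to 0.0948).

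The Adamtsl genes, which code for microfibril-binding proteins with no protease domain, were lower wherever they were called without a replicate block. Of the 5 genes tested, 3, 3 and 2 were called lower in order of time, against 5.13%, 7.93% and 11.0% of all genes. *Adamtsl2*, which binds fibrillin and latent Tgf-beta binding protein, read 362 and 329.8 against 14.9 and 34.0 CPM at Day 3, 1511 and 2396 against 153 and 647 CPM at Day 7, and 3314 and 3020 against 565 and 812 CPM at 4 weeks. It rose in both groups and the controls were always above. Its log2 fold changes were -3.82 ± 0.66 (adjusted p = 0.0096), -2.29 ± 0.61 (adjusted p = 0.033) and -2.20 ± 0.61 (adjusted p = 0.030). The call was lost at Day 3 without *Sox17*-*Erg* replicate 1 (adjusted p = 0.0956). It was lost at Day 7 without either control of Day 3, control replicate 2 or *Sox17*-*Erg* replicate 1 of Day 7 (0.0506 to 0.135) and at 4 weeks without any 1 of the 4 libraries of that time (0.0682 to 0.173). The Day 7 value was -1.59 without *Sox17*-*Erg* replicate 1 and -3.71 without replicate 2 of that day. *Adamtsl5* was lower at Day 3 (-1.30 ± 0.34, adjusted p = 0.040), *Adamtsl1* at Day 7 (-2.32 ± 0.58, adjusted p = 0.025) and *Adamtsl4* at Day 7 and 4 weeks (-1.15 ± 0.30, adjusted p = 0.030, and -1.13 ± 0.30, adjusted p = 0.025). The replicate block within time points added lower calls of *Adamtsl4* at Day 3 (-1.07, adjusted p = 0.010, and 0.030 with the block over all libraries), of *Adamtsl1* at 4 weeks (-1.28, adjusted p = 0.033) and of *Adamtsl5* at Day 7 and 4 weeks (-0.86 and -0.67, adjusted p = 0.0058 and 0.011).

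**Figure D4:**
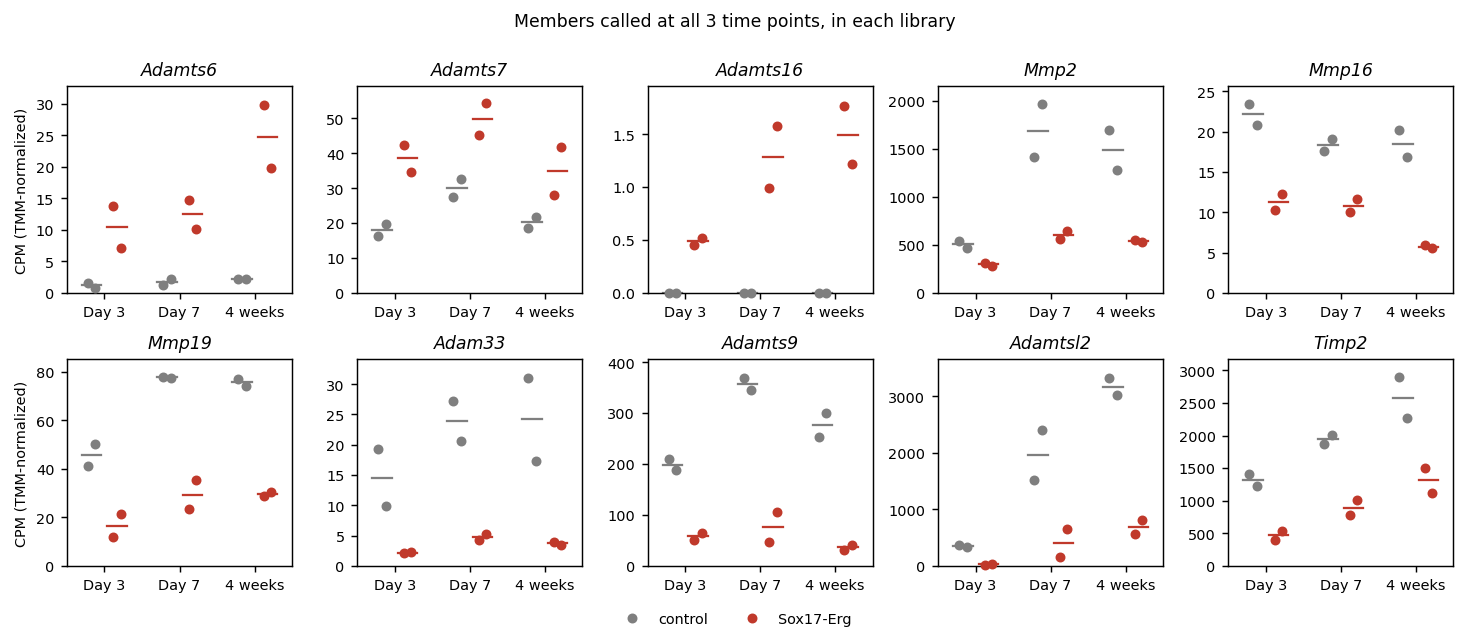
TMM-normalized CPM (y axis, linear from 0, own scale for each gene) of the 10 members called at all 3 time points, in each library at Day 3, Day 7 and 4 weeks (x axis), control in gray and *Sox17*-*Erg* in red, with lines at group means. *Adamts6*, *Adamts7* and *Adamts16* are higher in red at each time point and the other 7 are lower, without overlap within a time point.

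The next comparison asked whether the *Sox17*-*Erg* effect changed over time. Between Day 3 and 4 weeks it differed for 4 of the 55 members (7.27%), against 3.21% of all genes. All 4 differences were upward, and upward ones were also the more frequent among all genes (2.22% up and 0.987% down). *Adam19*, a sheddase of neuregulins, read 246 and 271 against 267 and 294 CPM at Day 3, 89.2 and 64.7 against 183 and 169.8 CPM at Day 7, and 30.7 and 35.6 against 83.0 and 75.3 CPM at 4 weeks. It fell in both groups, less so with *Sox17*-*Erg*, and was called at Day 7 (1.20 ± 0.16, adjusted p = 0.0015) and 4 weeks (1.26 ± 0.16, adjusted p = 0.00077) and not at Day 3 (0.12 ± 0.16). The difference in effect was 1.14 ± 0.22 on the log2 scale (adjusted p = 0.031).

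*Adam28*, a sheddase best known from lymphocytes, had 16 and 9 counts against 6 and 12 at Day 3, 9 and 8 against 13 and 8 at Day 7, and 7 and 6 against 52 and 35 at 4 weeks. The groups overlapped at Day 3, lay close together at Day 7 (0.346 and 0.322 against 0.358 and 0.352 CPM) and were apart at 4 weeks (2.90 ± 0.47, adjusted p = 0.0026), with a difference in effect of 3.18 ± 0.67 (adjusted p = 0.038). *Adamts4*, with the values above, had a difference of 1.19 ± 0.22 (adjusted p = 0.025). *Adamtsl3*, a microfibril-associated protein, read 28.8 and 38.9 against 4.45 and 10.8 CPM at Day 3, 18.0 and 31.9 against 17.9 and 35.7 CPM at Day 7, and 14.3 and 14.8 against 24.5 and 23.4 CPM at 4 weeks. It was lower at Day 3 (-2.14 ± 0.45, adjusted p = 0.020, and 0.0629 to 0.136 without either control or *Sox17*-*Erg* replicate 1 of that day). Its *Sox17*-*Erg* values were the higher ones at 4 weeks (0.72 ± 0.43, adjusted p = 0.27, 0.023 with the replicate block within time points), with a difference in effect of 2.86 ± 0.62 (adjusted p = 0.044). Between Day 3 and Day 7, and between Day 7 and 4 weeks, edgeR called 0 members, against 0.0838% and 0.0387% of all genes. At an unadjusted p under 0.05 were 8 and 5 members, against 8.91% and 6.47% of all genes, and DESeq2 called 4 and 1, against 1.79% and 0.929%.

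**Figure D5:**
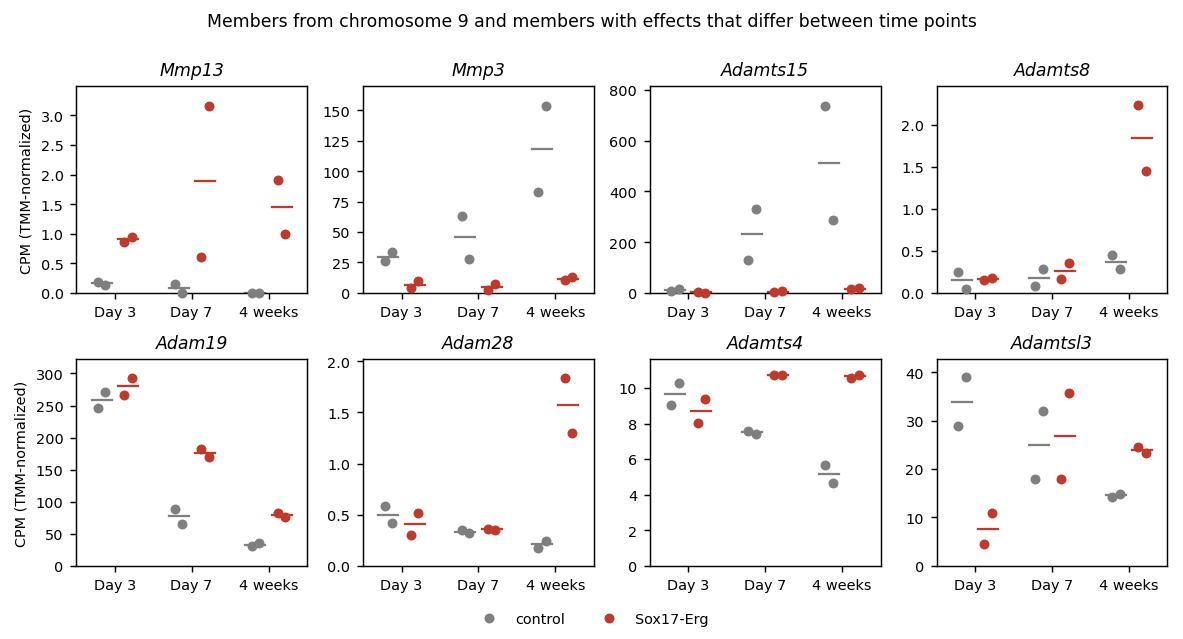
TMM-normalized CPM (y axis, linear from 0, own scale for each gene) in each library at Day 3, Day 7 and 4 weeks (x axis), control in gray and *Sox17*-*Erg* in red, with lines at group means. The upper row holds 2 pairs of genes from chromosome 9 that moved in opposite directions, *Mmp13* with *Mmp3* and *Adamts15* with *Adamts8*; the lower row holds the 4 members whose effect differed between Day 3 and 4 weeks.

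Members were also compared between Day 3 and 4 weeks within each group. In the control cells 12 members rose and 12 fell (21.8% each of the 55), where 13.9% and 12.6% of all genes did. In *Sox17*-*Erg* cells 16 rose and 9 fell (29.1% and 16.4%), with backgrounds of 15.1% and 15.6%. The share that fell with *Sox17*-*Erg* was thus near that of all genes. The comparisons share no libraries with each other, but each shares its libraries with the comparisons above. The matrix-bound and cardiac inhibitors rose in both groups, *Timp3* by 1.94 ± 0.45 (adjusted p = 0.014) in control and 3.24 ± 0.48 (adjusted p = 0.0020) in *Sox17*-*Erg* cells, and *Timp4* by 4.01 ± 0.64 (adjusted p = 0.0028) and 6.50 ± 0.76 (adjusted p = 0.00079) on the log2 scale. *Adamts15* rose by 5.39 ± 0.77 and 3.25 ± 0.79 (adjusted p = 0.0017 and 0.014), *Adamtsl2* by 3.19 ± 0.64 and 4.81 ± 0.69 (0.0074 and 0.0018), *Adamts3* by 3.62 ± 0.46 and 1.82 ± 0.52 (0.0011 and 0.028) and *Mmp2* by 1.56 ± 0.20 and 0.87 ± 0.20 (0.0013 and 0.012). *Adam12*, a protease known from regenerating and activated mesenchymal cells, had changes of -4.38 and -3.71 (0.00016 and 0.00033), the largest called falls in both groups. *Adamts12* changed by -2.03 and -1.95 and *Adam19* by -2.96 and -1.82, each called in both groups. *Timp1* changed by -0.68 ± 0.32 (adjusted p = 0.14) in control and by -1.46 ± 0.32 (adjusted p = 0.010) with *Sox17*-*Erg*, and the difference between these was not called (adjusted p = 0.44).

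Among 32 other genes of the pathway, activators, inhibitors and partners of these proteases, 25 were tested. Those called higher numbered 1, 5 and 7 in order of time (4.00%, 20.0% and 28.0% of the 25, against 7.19%, 9.48% and 11.9% of all genes). Those called lower numbered 6, 5 and 5 (24.0%, 20.0% and 20.0%, against 5.13%, 7.93% and 11.0%). *Plau*, the urokinase that starts plasmin-driven Mmp activation, was lower at each time point (-1.26, -1.40 and -1.78, adjusted p = 0.019, 0.0077 and 0.0018), and *Plat*, tissue plasminogen activator, at Day 7 and 4 weeks (-0.81 and -1.26). *Furin*, which cleaves the propeptides of membrane-type Mmps, Adams and Adamts proteases, was higher at Day 7 and 4 weeks (0.74 and 0.96, adjusted p = 0.0048 and 0.00088). Its relative *Pcsk5* was higher at 4 weeks (2.10) while *Pcsk6* was lower at Day 3 and 4 weeks (-1.35 and -1.68). Of 5 tetraspanins that pair with Adam10, *Tspan14* was higher at each time point (1.60, 1.97 and 1.93) and *Tspan15* at Day 7 and 4 weeks (2.204 and 4.49). *Tspan17* was lower at Day 3 (-1.14, adjusted p = 0.021), *Tspan5* and *Tspan33* were called at no time point, and neither was *Adam10* itself. *Reck*, a membrane-anchored Mmp inhibitor, was lower at Day 3 (-0.99, adjusted p = 0.029), and *Spock2*, an extracellular proteoglycan, at each time point (-2.33, -2.16 and -1.49).

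Markers of other cell types moved with the groups. Of 7 mesothelial markers 1, 5 and 7 were lower in *Sox17*-*Erg* cells at Day 3, Day 7 and 4 weeks, with summed levels of 406 to 1879 CPM over the 6 control and 185 to 417 CPM over the 6 *Sox17*-*Erg* libraries. Of 8 smooth muscle and pericyte markers 2, 6 and 5 were higher and 1 was lower at 4 weeks, with summed levels of 555 to 3702 CPM and 2187 to 4805 CPM. Of 10 endothelial markers 4, 5 and 7 were higher (21 to 61.7 CPM against 314 to 775 CPM), and of 8 cardiomyocyte markers 1, 3 and 5 were lower (642 to 1525 CPM against 334 to 687 CPM). Fibroblast markers went both ways, with 4 of 10 lower and 1 higher at 4 weeks, and *Ly6g* and *Retnlg* of the 10 neutrophil markers were at 0 counts throughout. Of 6 mast cell markers 1 was tested and called at no time point. The part of these cell types in the results above was not tested.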

How the data were processed

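Bulk RNAseq of 12 libraries was used. Per the study's methods and the submitters' processing notes, stranded mRNA libraries were sequenced, demultiplexed with bcl2fastq 2.20.0, trimmed of high GC content with BBDuk and quantified with Salmon on mm10. The authors deposited estimated counts per gene, rounded to whole numbers and not scaled, for 35727 Ensembl genes. The Salmon version, annotation and strand setting are not given in the sources used here. Without a stated strand setting, counts of members that overlap another gene are uncertain. Symbols and positions came from GENCODE M21 (GRCm38), which held 35422 of the genes.

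Samples were grouped by the labels. The fit used edgeR 4.0.16 under R 4.3.3, with TMM factors, filterByExpr (minimum count 10, minimum total 15), 15506 genes, 1 mean per group, 6 residual degrees of freedom and Benjamini-Hochberg adjustment over all genes tested. CPM values are TMM-normalized, and errors are standard errors of the fit. Library totals of 19011635 to 41240449 counts make 3 counts worth about 0.1 CPM, and floors and counts cover counting error only. The fit was tested on simulated data with known changes.

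Members, role lists and pathway lists were chosen with earlier results of these data known. Named with values were the Timps, the 5 highest and 5 lowest called members of each time point, members called at all 3, members with a called difference in effect and the 5 most abundant per kilobase that were never called. Others, such as *Mmp15*, *Adam10* or *Adamts5*, were named after their values were seen, and their calls were not followed without single libraries. Alternatives were DESeq2 1.42.0 and its size factors, other filters and thresholds, fits of single time points, leaving out each library, and the replicate number as a block. That number comes from the labels, and the methods state that compared conditions received virus made on the same day. Deviations of same-numbered control and *Sox17*-*Erg* libraries correlated across genes, which are not independent, by 0.19, 0.30 and 0.17 at the 3 time points. The main fit and the counts given first have no block, and the blocked value stands beside a result whose call it changes.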

Additional observations from a re-analysis of the deposited data

Results flagged for a closer look

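The *Sox17*-*Erg* effect on 4 members differed between Day 3 and 4 weeks in a test of the difference itself (edgeR quasi-likelihood test of the interaction, adjusted over all 15506 genes). The log2 effect at 4 weeks minus that at Day 3 was 1.14 for *Adam19* (adjusted p = 0.031), 3.18 for *Adam28* (adjusted p = 0.038), 1.19 for *Adamts4* (adjusted p = 0.025) and 2.86 for *Adamtsl3* (adjusted p = 0.044). *Adamtsl3* was below control at Day 3 and its *Sox17*-*Erg* libraries were the higher ones at 4 weeks, while the other 3 were near control at Day 3 and above it at 4 weeks. The calls depended on single libraries, while the share of all genes that differed was 3.21% with all libraries and 1.13% to 3.13% without 1. In all, 0 members were called without either Day 3 control, control replicate 2 of 4 weeks, *Sox17*-*Erg* replicate 1 of Day 3 or either *Sox17*-*Erg* library of 4 weeks, 1 without control replicate 1 of 4 weeks, 2 without *Sox17*-*Erg* replicate 2 of Day 3 and 3 without any 1 library of Day 7.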

How the results depend on the processing

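Of 48 called values of named members 21 were kept without any 1 library, and none changed sign under an alternative. All 48 were kept with DESeq2, its size factors, no low-count filter and both replicate blocks, and 37 with only the 4 libraries of the time point. Shares in brackets are those of all genes. With adjusted p under 0.01, higher members numbered 1, 3 and 7 (1.96%, 4.46%, 6.97%) and lower members 5, 8 and 9 (0.755%, 2.64%, 4.79%) at Day 3, Day 7 and 4 weeks, 0 differed in effect between Day 3 and 4 weeks (0.561% up, 0.232% down), and from Day 3 to 4 weeks 5 rose (6.11%) and 7 fell (4.97%) in control and 5 rose (7.25%) in *Sox17*-*Erg* cells. A minimum log2 fold change of 1 gave 5 higher at Day 7 (5.02%), and single time points 4 higher (3.61%) and 8 lower (2.64%) there. No low-count filter gave 17 lower at Day 3 (5.19%) and 11, 5 and 2 differences in effect (4 weeks against Day 3, 4.59%; Day 7 against Day 3, 1.76%; 4 weeks against Day 7, 0.954%), and DESeq2 gave 4 and 1 for the latter pair (1.79%, 0.929%); the cause was not tested.

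The replicate block within time points gave 22 lower members at Day 3 (10.4%), where the block over all libraries gave 14 (6.64%); each call between *Sox17*-*Erg* and control that either block changed is given with the results. Leaving out 1 library gave 1 to 3 higher (1.32 to 7.37%) and 2 to 13 lower members (0.426 to 6.55%) at Day 3, 4 to 7 (4.08 to 9.02%) and 5 to 16 (1.98 to 8.56%) at Day 7, and 5 to 12 (6.96 to 12.3%) and 8 to 16 (4.30 to 11.2%) at 4 weeks. Counts moved over 1.5 times without either control or *Sox17*-*Erg* replicate 1 of Day 3 (1 higher, and 4, 4 and 2 lower), without any library of Day 7 or *Sox17*-*Erg* library of Day 3 (4 or 5 higher at Day 7), without control replicate 2 or *Sox17*-*Erg* replicate 1 of Day 7 (9 and 5 lower), and without control replicate 1 (8 lower, 5 higher) or either *Sox17*-*Erg* library of 4 weeks (8 lower). For differences in effect the ranges were 0 to 3 (1.13 to 3.13%), 0 to 0 and 0 to 0. From Day 3 to 4 weeks 4 to 14 rose (5.97 to 14.4%) and 7 to 13 fell (5.38 to 13.2%) in control, lowest without either Day 3 control (4 and 5 rose, 7 fell) or control replicate 1 of 4 weeks (5 and 7), and 9 to 17 rose (8.26 to 16.9%) and 7 to 10 fell (5.52 to 15.9%) in *Sox17*-*Erg* cells, with 9 and 10 risers without replicate 1 of Day 3 or 4 weeks.

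Some uncalled log2 fold changes took both signs when 1 library was left out. At Day 3 *Adamts8* ran from -0.67 to 1.72 (-0.051 without *Sox17*-*Erg* replicate 2) and *Mmp14* from -0.26 to 0.012. At Day 7 *Adamts1* ran from -0.089 to 0.46, *Adamts2* from -0.78 to 0.19, *Adamts8* from -0.17 to 1.64 (-0.14 without *Sox17*-*Erg* replicate 2), *Adamtsl3* from -0.52 to 0.57 (-0.26 without control replicate 1) and *Timp1* from -0.97 to 0.0050. At 4 weeks *Adamts2* ran from -0.69 to 0.073. *Mmp9*, *Mmp13*, *Adam28*, *Adamts8* and *Adamts16* rest on few counts, which limits their precision. *Mmp13*, *Adamts8* and *Adamts16* would not have passed the low-count filter without *Sox17*-*Erg* libraries, nor *Mmp9* without the Day 7 controls. Each thus entered the tests by the group where it was high, and its calls are among the counts of members given above.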
